A study of Mus musculus with 4 samples.

Results

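Transcripts of 8 host genes that take part in the entry of adeno-associated virus (AAV) into cells were measured in single cells of the mouse ventromedial prefrontal cortex (vmPFC). The genes were AU040320, Gpr108, Tm9sf2, Ext1, Ext2, Ndst1, Fgfr1 and Rpsa, chosen by name from what is known of AAV entry, and all 8 were found among the 31053 genes of the count matrices. Male C57BL/6 mice of 8 weeks had received rAAV2-retro viruses by unilateral injection into 5 targets of the vmPFC: basolateral amygdala (BLA), lateral hypothalamus (LH), agranular insula (AI), mediodorsal thalamus (MD) and dorsomedial striatum (DMS). Each virus carried EGFP, driven by a short CAG promoter, with a barcode for its target. The age given is that at injection, and the prelimbic and infralimbic areas were dissected several weeks later for 10x Genomics 3' sequencing. There were 3 libraries of unsorted cells, 1 mouse each by their titles, and 1 sorted library, in which EGFP-positive cells of 3 other mice were pooled. All 4 libraries came from injected animals, and no uninjected control was among the samples. Of 24801 cell barcodes, 9368 carried the authors' label of an excitatory neuron subtype.

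rAAV2-retro is a laboratory variant of AAV2 that is taken up well at axon terminals and carried back to the cell body. AAV2 attaches to heparan sulfate, a sugar chain on cell-surface proteins. It then uses AAVR, a receptor that travels from the surface to the Golgi apparatus, on its way to the nucleus. AAVR (also KIAA0319L) is encoded by AU040320 in the mouse. GPR108 is a Golgi membrane protein that most AAV serotypes need. TM9SF2 is a membrane protein of endosomes and Golgi that is needed for normal heparan sulfate synthesis. EXT1 and EXT2 form the polymerase that builds the heparan sulfate chain, and NDST1 starts its sulfation. FGFR1, a fibroblast growth factor receptor, and RPSA, the laminin receptor and a ribosomal protein, have each been described as co-receptors for AAV. Whether rAAV2-retro depends on heparan sulfate or on each of these factors was not tested here.

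The feature named barcode was read as the sum of the 5 viral barcodes, which was not tested. A barcode transcript can mark a neuron that took up a virus, but 1 UMI can also be free RNA from other cells. A neuron without one may have no axon in an injected target, may not have been infected, or may hold a transcript missed at this depth, and these cannot be told apart here. The unsorted libraries held 7243 to 8040 cell barcodes and 83065993 to 87841541 UMIs, and the sorted library held 2075 and 54749198. The median excitatory neuron had 21343.5, 22239 and 23213 UMIs in unsorted replicates 1 to 3 and 31669 after sorting, and the barcode took 0.0319% to 0.0384% of UMIs. Pairs of libraries shared 5 to 30 cell barcodes. Levels are given as CPM, the UMIs of a gene divided by all UMIs of the neurons of a subtype in a library, times 1000000, and n = 3 refers to the unsorted libraries. In such sums fewer expressing cells and less RNA per cell cannot be told apart. CPM is not divided by gene length, so levels were compared between neurons and not between genes.

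Subtypes differed widely in how many of their neurons held a barcode. The share with at least 1 barcode UMI was highest in L5-S100b (84.5% ± 2.40, SD, n = 3), L5-Bcl6 (80.1% ± 3.49), L2/3-Rorb (80.1% ± 3.46) and L6-Npy (78.0% ± 3.09). It was intermediate in L6-Syt6 (48.3% ± 2.08) and L2/3-Calb1 (47.9% ± 4.86). It was lowest in L5-Htr2c (14.8% ± 3.46), where the libraries gave 11.5%, 14.4% and 18.4%. L5-Htr2c neurons were also shallower, with library medians of 13886.5 to 15638 UMIs against 17473 to 27200 in the other 6 subtypes. After each neuron was thinned to 10000 UMIs, which kept 302 of the 317 L5-Htr2c neurons, its share was 11.5%, against 41.8% to 83.5% in the others. Glial and vascular cells, which have no axons, were read as a background. In the unsorted libraries their share was 3.04% to 4.37%, at library medians of only 2370 to 4876 UMIs. In the sorted library it was 21.1% in 57 microglia at a median of 7152 UMIs and 0% in 11 oligodendrocytes at a median of 14012 UMIs. Inhibitory neurons, closer to L5-Htr2c in depth with library medians of 12687.5 to 13964.5 UMIs, gave 6.68% ± 2.79. How much of the L5-Htr2c share was such background was not tested. At a limit of 5 UMIs the share was 69.1% ± 5.81 in L5-S100b, 27.6% ± 0.781 for L6-Syt6 neurons and 2.59% ± 1.31 for L5-Htr2c neurons.

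The entry receptor gene AU040320 was detected in every subtype. Its level was 31.3 ± 2.77 CPM in L5-Bcl6, 30.6 ± 1.31 in L2/3-Calb1, 28.4 ± 1.03 in L5-S100b, 27.0 ± 0.824 in L2/3-Rorb, 22.7 ± 2.94 in L6-Npy, 20.3 ± 0.989 in L6-Syt6 and 18.6 ± 3.55 in L5-Htr2c. The libraries of L5-Htr2c gave 21.5, 14.6 and 19.6 CPM, and those of L5-S100b gave 27.5, 29.6 and 28.2, with no overlap. Of the 6 pairs of neighbours in this order, 5 overlapped between libraries, and L2/3-Rorb and L6-Npy did not. L2/3-Calb1 and L6-Syt6 had similar barcode shares and stood near opposite ends of the AU040320 order.

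The Golgi factors were flatter. Gpr108 lay between 8.84 ± 2.13 CPM (L5-S100b) and 13.4 ± 2.16 CPM (L5-Htr2c), and all 6 neighbouring pairs overlapped. The libraries of L5-Htr2c gave 11.1, 15.3 and 13.7 CPM of Gpr108, and those of L5-S100b gave 11.1, 8.44 and 6.93. Tm9sf2 lay between 111 ± 3.05 CPM (L5-Bcl6) and 145 ± 4.62 CPM (L2/3-Rorb), with 4 of 6 neighbouring pairs overlapping. For neither gene was L5-Htr2c, which had the fewest barcoded neurons, the lowest subtype.

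The enzymes of heparan sulfate synthesis behaved unlike each other. Ext1 was highest in L5-S100b, with 106, 97.8 and 98.2 CPM in the 3 libraries, and lowest in L5-Htr2c, with 20.4, 23.7 and 33.3 CPM. Between them stood L6-Syt6 (78.0 ± 1.83 CPM), L6-Npy (78.0 ± 4.86), L5-Bcl6 (57.4 ± 0.715), L2/3-Rorb (50.3 ± 5.80) and L2/3-Calb1 (37.6 ± 7.33). Of the 6 neighbouring pairs 2 overlapped, L6-Syt6 with L6-Npy and L2/3-Calb1 with L5-Htr2c. Ext2, its partner in the polymerase, showed no such order: its means ran from 16.9 ± 0.575 CPM (L6-Syt6) to 22.0 ± 6.79 CPM (L5-Htr2c), and all 6 neighbouring pairs overlapped. Ndst1 was high in L6-Syt6 (52.9, 54.3 and 49.2 CPM) and in L5-Htr2c (50.7, 49.5 and 52.8 CPM), which overlapped. It was 28.9 ± 3.37 CPM in L5-Bcl6, 28.8 ± 2.01 in L5-S100b, 19.1 ± 1.70 in L6-Npy, 16.6 ± 2.14 in L2/3-Rorb and 11.3 ± 1.07 in L2/3-Calb1.

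Fgfr1 had the widest range of the 8 genes as a ratio of its highest to its lowest subtype mean (31.2). It reached 56.5, 46.0 and 50.9 CPM in L5-Htr2c. It was 23.1 ± 0.955 CPM in L6-Syt6 and 20.1 ± 3.21 in L5-Bcl6, which overlapped. It was 7.29 ± 0.886 CPM in L5-S100b, 3.49 ± 1.04 in L6-Npy, 2.33 ± 0.895 in L2/3-Rorb and 1.64 ± 1.58 in L2/3-Calb1, where it rested on 10 UMIs in all. L5-Bcl6 and L2/3-Rorb, with the same barcode share of 80.1%, thus stood at 20.1 and 2.33 CPM of Fgfr1. Rpsa ranged from 499 ± 15.6 CPM (L5-Htr2c) to 693 ± 58.5 CPM (L2/3-Calb1), and 5 of 6 neighbouring pairs overlapped.

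**Figure D1:**
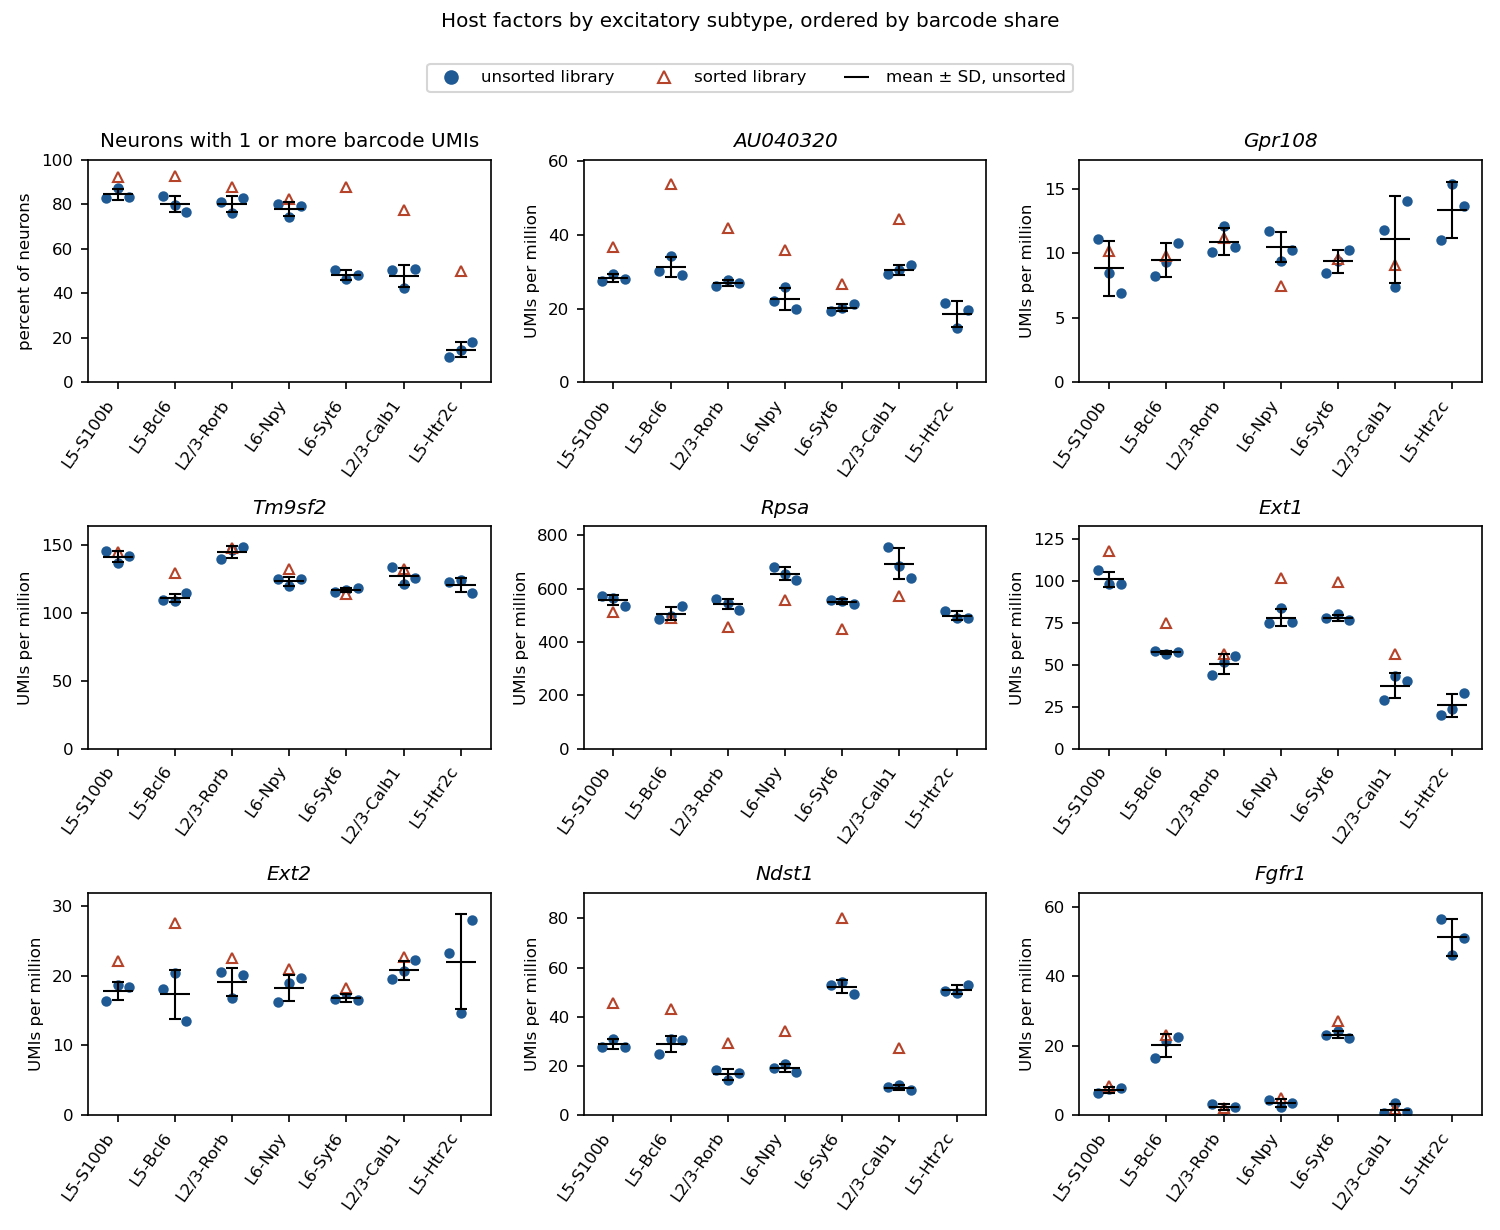
The first panel plots the percentage of neurons with at least 1 barcode UMI and the other 8 panels the level of each gene in CPM, for the 7 excitatory subtypes ordered by barcode share. Circles are the 3 unsorted libraries, open triangles the sorted library, and bars the mean ± SD of the unsorted libraries. Ext1 is highest in L5-S100b (101 CPM) and lowest in L5-Htr2c (25.8 CPM), Fgfr1 is highest in L5-Htr2c (51.1 CPM), and the libraries of neighbouring subtypes overlap throughout for Gpr108 and Ext2.

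The subtype differences were tested on sums of raw counts per library and subtype, with edgeR's quasi-likelihood test, the library as a block and Benjamini-Hochberg adjustment over all genes. A gene was called at an adjusted p under 0.05 and a gap of at least 0.5 on the log2 scale between its highest and lowest subtype. Over the 7 subtypes 4 of the 8 genes were called, beside 73.2% of all 13036 genes tested, and 6 of the 8 passed the adjusted p, beside 89.8%. The gap was 4.94 for Fgfr1, 2.19 for Ndst1, 2.05 for Ext1 and 0.92 for AU040320 on the log2 scale. Rpsa (gap 0.48) and Tm9sf2 (gap 0.33) passed the adjusted p but not the limit on the gap, while Ext2 (gap 0.25, adjusted p 0.603) and Gpr108 (gap 0.41, adjusted p 0.663) passed neither. The authors made the subtypes by clustering the same cells on their expression, so these p-values describe how far the clusters lie apart.

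L5-Htr2c, against the mean of the other 6 subtypes, had called genes in both directions, 4 of 8 beside 27.5% of all genes. Fgfr1 was 8.07-fold higher (95% interval 6.56 to 9.92) and Ndst1 2.02-fold higher (1.74 to 2.34), beside 12.8% of all genes called higher. Ext1 fell by 1.41 on the log2 scale (interval of the change -1.67 to -1.15, adjusted p 2.14e-11) and AU040320 fell by 0.60 (-0.90 to -0.29, adjusted p 0.00124), beside 14.7% called lower. The AU040320 call was lost without unsorted replicate 2 (log2 change -0.43, adjusted p 0.0422) and among neurons of 15000 to 30000 UMIs (-0.30, adjusted p 0.232). Tm9sf2 (-0.17) and Rpsa (-0.31) passed the adjusted p only, which 44.1% of all genes passed. Gpr108 (0.33, interval -0.12 to 0.78) and Ext2 (0.17, interval -0.16 to 0.49) did not pass.

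Markers of other cells were read in the same L5-Htr2c sums, since Fgfr1 is also a gene of astrocytes. The 6 astrocyte markers together came to 1208 to 1291 CPM, with 2 to 4 of the 6 at 0. With the sorted library included, the sum was 1133 to 1418 in L6-Syt6, 696 to 1067 in L2/3-Rorb and 604 to 782 in L5-S100b. It was 278 to 508 in L2/3-Calb1, 135 to 195 in L5-Bcl6 and 129 to 149 in L6-Npy. Most of the L5-Htr2c sum was Slc1a2, a glutamate transporter, at 1087 to 1188 CPM against 1111 to 1403 in L6-Syt6. Aldoc, a glycolytic enzyme of the same list, was at 91.4 to 120.0 CPM against 14.8 to 20.7 in L6-Syt6. Aldh1l1 was at 0 in 3 of 3 libraries, and Aqp4, the astrocyte water channel, lay between 0 and 2.33 CPM. Aldoc was thus higher than in L6-Syt6 while Aldh1l1 was not detected. The 6 mural cell markers came to 26.7 to 35.5 CPM, with 3 to 5 at 0: Rgs5 was at 26.1 to 32.6 CPM, and Acta2, Kcnj8 and Pdgfrb were at 0 in 3 of 3 libraries. The 6 markers of oligodendrocyte precursors (OPCs) came to 5.22 to 12.6 CPM, with 1 to 3 at 0. The part of these cells in the Fgfr1 value was not tested.

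L5-S100b and L6-Syt6 were compared with the other subtypes in the same way. In L5-S100b 1 of 8 genes was called, Ext1, at 1.98-fold the mean of the others (95% interval 1.85 to 2.12), beside 16.6% of all genes called, 10.9% higher and 5.71% lower. AU040320 (log2 change 0.17), Tm9sf2 (0.21) and Ndst1 (0.16) passed the adjusted p only, which 52.5% of all genes passed. In L6-Syt6 3 of 8 were called, all higher, beside 27.5% of all genes called, 16.6% higher and 11.0% lower: Ext1 (log2 change 0.67, interval 0.59 to 0.76), Ndst1 (1.23, 1.14 to 1.31) and Fgfr1 (1.87, 1.72 to 2.02). AU040320 fell by 0.30 on the log2 scale there, past the adjusted p only, which 68.8% of all genes passed. These 3 comparisons share their libraries and are given side by side.

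The level of each gene, as log2(CPM + 1), was set beside the barcode share over the 7 subtypes. Pearson's r was 0.65 for AU040320, 0.74 for Ext1, 0.37 for Tm9sf2 and 0.14 for Rpsa, and -0.73 for Gpr108, -0.67 for Ext2, -0.54 for Fgfr1 and -0.44 for Ndst1. The 7 points are means over the same 3 libraries and are given as a description. Without L5-Htr2c, over 6 subtypes, r was 0.29 for AU040320, 0.40 for Ext1, 0.36 for Tm9sf2, -0.43 for Rpsa, -0.25 for Gpr108, -0.24 for Ext2, -0.04 for Fgfr1 and -0.04 for Ndst1. Spearman's rho with and without L5-Htr2c was 0.57 and 0.31 for AU040320, 0.68 and 0.49 for Ext1, 0.21 and 0.14 for Tm9sf2, 0.04 and -0.54 for Rpsa, -0.75 and -0.60 for Gpr108, -0.57 and -0.31 for Ext2, -0.18 and 0.31 for Fgfr1, and -0.11 and 0.31 for Ndst1. The sign of rho was turned without L5-Htr2c for Rpsa, Fgfr1 and Ndst1.

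Within a subtype, neurons with 5 or more barcode UMIs (barcode-high) were compared with neurons without any (barcode-zero) of the same library. Both groups had at least 10 neurons in all 4 libraries for L2/3-Rorb, L6-Syt6, L6-Npy and L5-S100b, and in the 3 unsorted libraries for L2/3-Calb1 and L5-Bcl6. L5-Htr2c could not be tested, since it had 10 barcode-high neurons in all. The low-count filter left 42 of the 48 gene and subtype pairs, without Fgfr1 in L6-Npy, L2/3-Rorb and L2/3-Calb1, Gpr108 in L2/3-Calb1 and L5-Bcl6, and Ndst1 in L2/3-Calb1.

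None of the 8 genes was called in any of the 6 subtypes. The edgeR count was 0 of 42, with 4 of 42 at an unadjusted p under 0.05, and DESeq2 called 0 as well. Beside this stood 1.67% of all genes called in L6-Syt6, 2.7% in L5-S100b, 0.801% in L6-Npy, 0.139% in L2/3-Rorb, 0.18% in L2/3-Calb1 and 0.0686% in L5-Bcl6. At an adjusted p under 0.05 with no limit on the fold, 1 of 42 passed, beside 7.28% of all genes in L6-Syt6, 5.98% in L5-S100b, 1.56% in L6-Npy, 0.309% in L2/3-Rorb, 0.216% in L2/3-Calb1 and 0.0914% in L5-Bcl6. Log2 changes ran from -0.41 to 0.33, with a median size of 0.10. All 42 of the 95% intervals lay inside a 2-fold change in either direction, and 24 lay within 0.5 on the log2 scale. The intervals were narrowest in L6-Syt6, where 7 of 8 lay within 0.5, and widest in L5-Bcl6, where 1 of 7 did.

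AU040320, the receptor gene, did not separate the groups. In L6-Syt6 barcode-high and barcode-zero neurons had 21.1 and 17.1 CPM in unsorted replicate 1, 18.6 and 20.6 in replicate 2, 20.8 and 22.2 in replicate 3, and 25.5 and 31.6 in the sorted library. It was higher in 1 of 4 libraries, and the log2 change was 0.00 (95% interval -0.20 to 0.21, adjusted p 0.985). In L5-S100b the pairs were 28.7 and 25.5, 30.5 and 28.1, 28.3 and 30.0, and 36.0 and 41.7 CPM (log2 change 0.03, interval -0.26 to 0.32). In L6-Npy the log2 change was -0.05 (-0.35 to 0.25), and in L2/3-Rorb it was -0.20 (-0.57 to 0.17).

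Gpr108, the Golgi factor, was 8.71 and 7.74, 10.0 and 9.13, 10.6 and 10.1, and 9.34 and 9.66 CPM in barcode-high and barcode-zero L6-Syt6 neurons of unsorted replicates 1 to 3 and the sorted library. The log2 change was 0.14 (-0.07 to 0.34, adjusted p 0.399). Tm9sf2 in L6-Syt6 had 113 and 113, 117 and 116, 116 and 118, and 112 and 127 CPM, and a log2 change of 0.00 (-0.10 to 0.11). In L5-Bcl6 Tm9sf2 was 1.26-fold higher (interval 1.02 to 1.56), with an adjusted p of 0.722, and so did not pass.

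Among the heparan sulfate enzymes, Ext1 in L6-Syt6 was 76.8 and 75.4, 79.4 and 79.3, 76.0 and 74.6, and 96.7 and 114 CPM in the same order of libraries (log2 change 0.01, -0.10 to 0.12). In L6-Npy Ext1 was lower in barcode-high neurons in 4 of 4 libraries, with 71.8 and 95.2, 84.9 and 89.4, 70.2 and 80.7, and 99.4 and 107 CPM. The change there was -0.18 on the log2 scale (-0.35 to 0.00) and its adjusted p was 0.478. Ndst1 in L6-Syt6 was lower in 4 of 4 libraries, by a log2 change of -0.07 (-0.17 to 0.04, adjusted p 0.428). For Ext2 the log2 change was 0.00 in L6-Syt6 (-0.16 to 0.16), and the interval was wide in L2/3-Calb1 (-0.36, -0.99 to 0.28).

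Rpsa was lower in barcode-high L6-Npy neurons in 4 of 4 libraries, with 674 and 715, 653 and 673, 603 and 706, and 533 and 601 CPM. Its log2 change was -0.12 (-0.21 to -0.03), with an unadjusted p of 0.00733 and an adjusted p of 0.190 (edgeR). In L6-Syt6 the change was 0.10 (-0.01 to 0.21). The 74 other cytosolic ribosomal protein genes tested had a median log2 change of -0.06 in L6-Npy and 0.04 in L6-Syt6, against 0.00 and -0.01 over all genes. In L6-Npy 71 of the 74 had a change below 0.

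**Figure D2:**
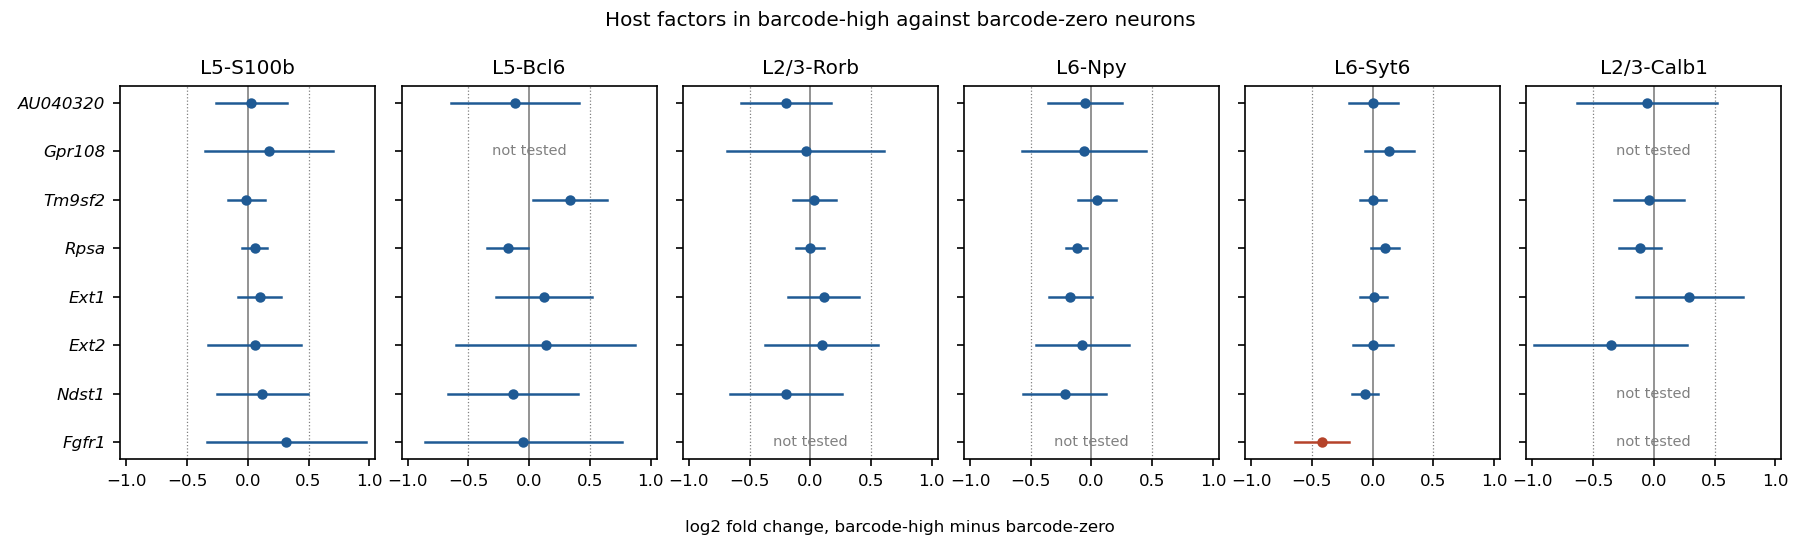
Each panel is a subtype and shows the log2 fold change of barcode-high against barcode-zero neurons for the genes tested, with its 95% interval. Red marks an adjusted p under 0.05 and dotted lines mark 0.5 in either direction. Of 42 points 1 is red, Fgfr1 in L6-Syt6 at -0.41.

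Fgfr1 in L6-Syt6 was the 1 of 42 tests that passed the adjusted p. Barcode-high and barcode-zero neurons had 21.5 and 23.4 CPM in unsorted replicate 1, 18.5 and 26.8 in replicate 2, 18.1 and 24.4 in replicate 3, and 21.4 and 40.1 in the sorted library. Fgfr1 was lower in barcode-high neurons in 4 of 4 libraries, and the ranges of the groups did not overlap. The change was -0.41 on the log2 scale (SE 0.0993, interval -0.64 to -0.19, adjusted p 0.0381), short of the limit of 0.5. In L5-S100b it was 0.32 (-0.34 to 0.97, adjusted p 0.683), on 4 to 12 UMIs per library in barcode-zero neurons.

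The adjusted p of Fgfr1 in L6-Syt6 depended on the libraries and the fit. It was 0.0528, 0.189 and 0.134 without unsorted replicates 1, 2 and 3 in turn, and 0.000503 without the sorted library, with changes of -0.55, -0.38, -0.42 and -0.33. With no library block the change was -0.41 with an adjusted p of 0.197, and with DESeq2 -0.43 with 0.0539. With barcode-positive neurons taken from 1 UMI up, the change was -0.25 (adjusted p 0.184), and among neurons of 15000 to 30000 UMIs -0.31 (adjusted p 0.0505).

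The level of Fgfr1 was also read by the amount of barcode. In the unsorted libraries it was 24.9 ± 1.74 CPM in L6-Syt6 neurons with 0 barcode UMIs, 24.4 ± 1.41 with 1 to 4, 21.9 ± 2.47 with 5 to 19, and 12.8 ± 2.52 with 20 or more (328 neurons). The first 3 groups overlapped, and the 328 neurons with most barcode lay below them at 9.90 to 14.4 CPM. AU040320 was 20.0, 21.1, 20.6 and 18.8 CPM and Gpr108 8.99, 9.69, 9.78 and 9.54 CPM over the same groups.

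L6-Syt6 neurons fell into 3 large parts when clustered here, and these differed in both barcode and Fgfr1. The neuron numbers and percentages of the parts pool the sorted and unsorted libraries, while the levels are from the unsorted ones. In L6-Syt6 57.1% of sorted and 27.1% to 28.5% of unsorted neurons were barcode-high. Part 1 (2194 neurons, led by Trbc2, Gm10635 and Rprm) held 19.01% barcode-high neurons and 28.8 ± 0.527 CPM of Fgfr1. Part 2 (1380 neurons, led by the activity genes Egr4, Arc and Npas4) held 47.7% and 17.2 ± 1.56 CPM, and part 3 (1340 neurons, led by Foxp2, Rprm and Crym) held 38.7% and 20.8 ± 1.61 CPM. Within part 1 the Fgfr1 change was -0.52 (adjusted p 0.0236) and past both limits. Within part 2 it was 0.11 (adjusted p 0.885) and within part 3 -0.27 (adjusted p 0.463). The fits of parts 1 and 2 used 4 libraries and that of part 3 only 3. The difference between parts was not tested.

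Other measures moved with the same groups. Barcode-high L6-Syt6 neurons had library medians of 24582 to 38604 UMIs, against 21684 to 30096.5 in barcode-zero neurons. The 6 astrocyte markers summed to 925 to 1171 CPM in barcode-high and 1231 to 1865 CPM in barcode-zero neurons (1 and 0 to 3 of the 6 at 0), and nearly all of it was Slc1a2, a glutamate transporter gene. Aqp4, Gja1 and Aldh1l1 stayed at or under 0.737 CPM in both groups. In barcode-high and barcode-zero neurons Aqp4 had 3 and 9 UMIs, Gja1 12 and 28 and Aldh1l1 5 and 7. Of the other markers of this list, Slc1a3 had 53 and 89 UMIs and Aldoc 830 and 1068. The 6 mural cell markers summed to 6.31 to 11.6 against 24.6 to 35.7 CPM (1 to 3 and 0 to 3 at 0), nearly all of it Rgs5. In the same neurons Vtn had 55 and 132 UMIs, Pdgfrb 2 and 20, Myl9 12 and 23, Acta2 5 and 16 and Kcnj8 4 and 7. The part of depth and of these markers in the Fgfr1 value was not tested.

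**Figure D3:**
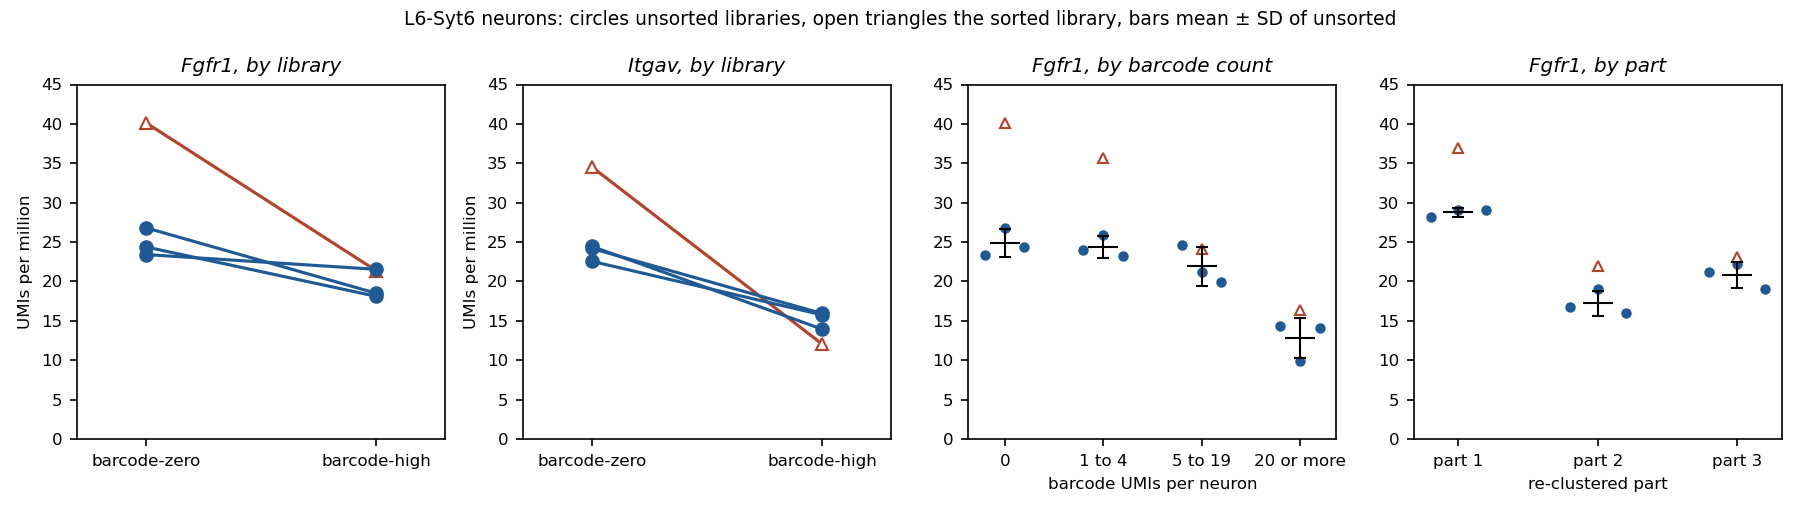
Levels in L6-Syt6 neurons in CPM: Fgfr1 and Itgav in barcode-zero and barcode-high neurons with a line for each of the 4 libraries, Fgfr1 by barcode UMIs, and Fgfr1 by cluster part, with circles for the unsorted libraries, open triangles for the sorted library and bars for the mean ± SD of the 3 unsorted libraries. All 4 lines go down from barcode-zero to barcode-high for both genes, and Fgfr1 is 12.8 CPM in neurons with 20 or more barcode UMIs against 24.9 CPM in those with 0.

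Whether the barcode-high against barcode-zero difference varied between subtypes was tested in the 4 subtypes with both groups in all 4 libraries. None of the 8 genes passed an adjusted p of 0.05 (edgeR), beside 7.36% of the 12081 genes tested, and 1 of 8 had an unadjusted p under 0.05. That gene was Rpsa (p 0.0305, adjusted p 0.189 by edgeR), and without the sorted library its adjusted p was 0.0304. For Fgfr1 the adjusted p was 0.482 (edgeR). Fgfr1 had not passed the low-count filter within L6-Npy, on 51 and 18 UMIs in barcode-high and barcode-zero neurons, or within L2/3-Rorb, on 24 and 7. For these subtypes the test could decide little, and nothing is drawn from it.

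Other genes of the same pathway were taken from lists and read beside the same background, 0.0686% to 2.7% of all genes called in the 6 subtypes. Of 20 genes of Golgi retrieval, among them Vps51 to Vps54 of the tethering complexes and Vps35 of the retromer, edgeR called 0 in 115 tests over the 6 subtypes (12 at an unadjusted p under 0.05, DESeq2 0). Their median log2 change was 0.03. Atp2c1, a Golgi calcium pump, changed by -0.28 on the log2 scale in L5-S100b (adjusted p 0.0214), past the adjusted p only. Of 17 other heparan sulfate enzymes and suppliers, 0 were called in 97 tests (13 at an unadjusted p under 0.05, DESeq2 0), with a median of 0.02. In L5-S100b Ndst3, a relative of Ndst1, changed by 0.43 (adjusted p 0.0357) and Hs6st2, a sulfotransferase, by -0.40 (adjusted p 0.0207), both past the adjusted p only.

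The proteins that carry heparan sulfate gave 1 call in 32 tests, in L5-S100b, where 2.7% of all genes were called. Gpc1, glypican 1, was 60.2 and 41.1, 58.9 and 35.6, 52.4 and 28.0, and 74.7 and 61.1 CPM in barcode-high and barcode-zero L5-S100b neurons of unsorted replicates 1 to 3 and the sorted library. It was higher in 4 of 4 libraries, with a log2 change of 0.62 (SE 0.121, adjusted p 0.000861), and the adjusted p was 0.188 with no library block and 0.0211 with DESeq2. The 6 astrocyte markers came to 630.0 to 829 CPM in these barcode-high neurons, with 0 to 1 at 0, and to 420.1 to 619.6 in the barcode-zero ones, with 1 to 3 at 0. Library medians were 25553.5 to 34389 UMIs and 19306.5 to 28185. The part of either in the Gpc1 value was not tested. In L6-Syt6 the Gpc1 values were 36.2 and 38.3, 38.0 and 34.6, 35.0 and 37.1, and 54.4 and 67.2 CPM. The test of a difference between subtypes gave Gpc1 an adjusted p of 0.00612 (edgeR). Sdc3, a syndecan, changed by -0.445 in L5-S100b (adjusted p 0.00147), short of the limit.

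Other candidate co-receptors gave 1 call in 13 tests, Itgav in L6-Syt6, where 1.67% of all genes were called. Itgav encodes the alpha V integrin subunit. It was 13.96 and 24.5, 15.9 and 24.2, 15.8 and 22.6, and 12.1 and 34.5 CPM in barcode-high and barcode-zero neurons, so every barcode-high value lay below every barcode-zero value. The change was -0.75 (SE 0.122, adjusted p 0.0109). It was no longer called with barcode-positive neurons taken from 1 UMI up (log2 change -0.37, adjusted p 0.216) or without unsorted replicate 1 (-0.74, adjusted p 0.0864) or 2 (-0.83, adjusted p 0.0940), and within parts 1 to 3 of L6-Syt6 it was -0.58, -0.44 and -0.31, called in part 1 alone. In L6-Npy the Itgav values went the other way in 4 of 4 libraries, with 37.4 and 23.1, 31.8 and 26.4, 31.6 and 26.0, and 29.5 and 24.7 CPM. Within L6-Npy alone the change did not pass (adjusted p 0.278). In the test of a difference between subtypes Itgav passed an adjusted p of 0.05 (edgeR), beside 7.36% of all genes. Its gap there was 1.12 on the log2 scale.

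Transport to the nucleus gave no call, beside 0.0686% to 2.7% of all genes called in the subtypes. Of 13 genes of dynein and retrograde transport 0 were called by edgeR in 78 tests (9 at an unadjusted p under 0.05, DESeq2 0), and the dynactin subunit Dctn2 in L6-Syt6 (0.35, adjusted p 0.0445) passed the adjusted p only. Of 10 genes of nuclear import and vector genome processing 0 were called in 50 tests (6 at an unadjusted p under 0.05, DESeq2 0), and Fkbp4, a chaperone, passed the adjusted p only in L6-Syt6 (0.26, adjusted p 0.0363). Over the 74 ribosomal protein genes 0 were called in 444 tests (63 at an unadjusted p under 0.05, DESeq2 0), while Rpl3 (-0.19) and Rps4x (-0.16) passed the adjusted p only in L6-Npy.

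Genes of neuronal activity were read in the same comparisons. Of 13 such genes, 11 were called higher in barcode-high neurons of L6-Npy, beside 0.801% of all genes called. In L6-Syt6 8 were called (beside 1.67%), in L5-S100b 3 (2.7%), in L2/3-Calb1 3 of 12 (0.18%) and in L2/3-Rorb 1 (0.139%). In L5-Bcl6 edgeR called 0 of 12 (1 at an unadjusted p under 0.05, DESeq2 0). Nr4a2 rose by 1.55 on the log2 scale in L6-Npy and Egr4 by 0.90 in L6-Syt6. The median over the list was 0.85 in L6-Npy and 0.53 in L6-Syt6, against -0.07 and 0.00 over the entry factors tested. DESeq2 called 13 of the 76 tests and edgeR 26. By DESeq2 3 were called in L6-Npy, 8 in L6-Syt6, 1 in L5-S100b, 1 in L2/3-Calb1 and 0 in L2/3-Rorb. With no library block edgeR called 0 of all genes tested in L6-Npy and 0 in L2/3-Rorb.

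The same lists were read across subtypes, in the comparisons of each subtype with the mean of the other 6. In L5-Htr2c, beside 27.5% of all genes called, 3 of 17 further genes of heparan sulfate synthesis were called higher and 2 lower, and 1 of 7 core proteins higher and 1 lower. Of 20 Golgi retrieval genes 1 was lower and of 13 dynein genes 1 was higher and 1 lower. The heparan sulfate carrier Gpc6 (log2 change 1.18) and the sulfotransferase Hs6st2 (0.89) were higher there, and Gpc1 (-1.20) and Ndst3 (-1.98) lower. In L5-S100b, beside 16.6%, 3 of 17 synthesis genes and 3 of 7 core proteins were called higher and 0 lower in either list. They were Gpc6 (1.65), Gpc5 (2.38), Gpc1 (0.79), Ndst3 (1.81), Extl3 (0.72) and Xylt1 (0.77), the enzyme that starts the chain. The Golgi retrieval list gave 0 calls there (12 of 20 at an unadjusted p under 0.05, DESeq2 0), and so did the dynein list (9 of 13, DESeq2 0). In L6-Syt6, beside 27.5%, 5 of 7 core proteins were called lower, among them Gpc6 (-5.25), Gpc4 (-3.60), Sdc3 (-0.86) and Agrn (-0.72). Of 17 synthesis genes 2, Hs6st2 (1.53) and Xylt1 (0.57), were higher and 2, Ndst3 (-1.14) and Hs6st1 (-0.93), lower. Of 20 Golgi retrieval genes 3 and of 13 dynein genes 4 were higher.

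The sorted library was set beside the range of the 3 unsorted libraries, with no test, since it is 1 library and sorting, animals, depth and RNA quality cannot be told apart in it. In the 6 subtypes with enough sorted neurons the median mitochondrial share of a barcode group was 2.54% to 4.79% in the sorted library and 5.65% to 9.19% in the unsorted ones. AU040320, Ext1, Ext2 and Ndst1 lay above the unsorted range in 6 of these 6 subtypes. AU040320 was 54.0 CPM in sorted L5-Bcl6 neurons against 29.3 to 34.5 unsorted, and Ndst1 was 80.2 CPM in sorted L6-Syt6 neurons against 49.2 to 54.3. Fgfr1 lay above the range in 4 of 6, Tm9sf2 in 2, and Gpr108 in 0. Rpsa went the other way and lay below the range in 5 of 6, with 447 CPM in sorted L6-Syt6 neurons against 540.1 to 556.

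Levels in other cell classes, clustered here without the 8 genes, are given with no test. Gpr108 was lowest in the authors' excitatory neurons (9.67 ± 0.295 CPM), where 58.8% of cells held a barcode, and was 12.97 ± 1.66 CPM in inhibitory neurons, 35.3 ± 1.62 in microglia and 53.0 ± 6.01 in mural cells. Ext2 was also lowest in excitatory neurons, at 17.6 CPM against 55.7 in OPCs. Among the 8 named classes Ext1 was highest in excitatory neurons, with 76.0 ± 1.41 CPM against 49.1 ± 4.08 in OPCs, 17.1 ± 0.514 in inhibitory neurons and 14.8 ± 2.78 in microglia. It was 109 ± 17.8 CPM in 129 shallow cells, at library medians of 2237 to 4290 UMIs, that clustered with excitatory neurons and carried no subtype label. AU040320 was 23.0 ± 0.660 CPM in excitatory neurons, within the span from 14.9 ± 6.21 in mural cells to 33.4 ± 2.05 in OPCs.

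Fgfr1 was highest in astrocytes, at 257 ± 24.0 CPM, followed by OPCs (87.7 ± 2.64) and mural cells (76.4 ± 18.1). Inhibitory neurons had 31.9 ± 4.85 CPM, excitatory neurons 17.1 ± 0.543, and microglia 0.910 ± 0.126 on 11 UMIs. Rpsa was highest in microglia (1603 ± 50.9 CPM) and lowest in astrocytes (344 ± 13). Tm9sf2 was 124 ± 1.25 CPM in excitatory neurons and between 106 and 195 in the others. Ndst1 was 40.3 ± 2.02 CPM in excitatory neurons and 39.8 ± 1.92 in oligodendrocytes, with the lowest level in microglia (13.6 ± 1.77).

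**Figure D4:**
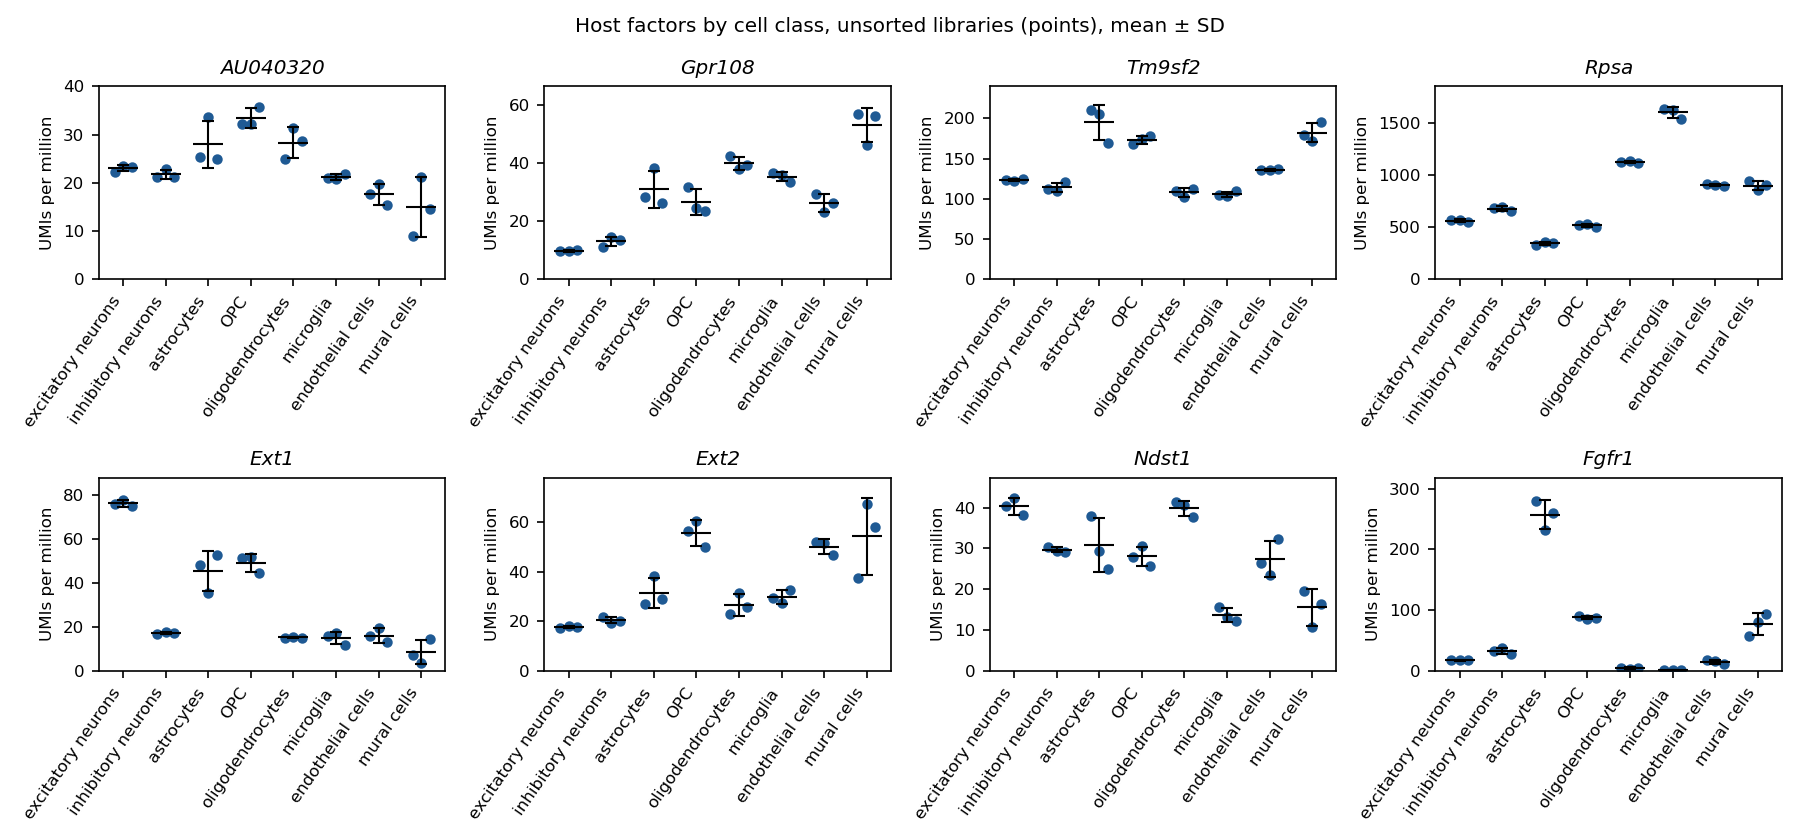
Level of each gene in CPM in the cell classes of the 3 unsorted libraries, with a point for each library and bars for the mean ± SD. Fgfr1 is highest in astrocytes (257 CPM), Ext1 among the named classes in excitatory neurons (76.0 CPM) and Rpsa in microglia (1603 CPM), while Gpr108 is lowest in excitatory neurons (9.67 CPM).

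Genes with the most similar pattern over the 21 unsorted sums of library and subtype were found by Pearson's r of log2(CPM + 1) among 9011 genes, as a description. For Fgfr1 these were Rnf128 (0.96), Snrpn (0.96) and Aldh3a2 (0.94), and for Ndst1 Stmn3 (0.97), Nipal3 (0.96) and Gng12 (0.96). For Ext1 they were Dkk3 (0.92), Akap6 (0.91) and Tbc1d24 (0.91), and for AU040320 Thap12 (0.93) and Slitrk4 (0.92). For Tm9sf2 they were Galnt17 (0.92), Dnajc21 (0.91) and Rnf144a (0.90), and for Rpsa Ncor1 (0.93), Samd12 (0.92) and Sec14l2 (0.91). For Gpr108 they were Gm26724 (0.75), Lrch2 (0.74) and Pip5k1a (0.74), and for Ext2 Ddx18 (0.79), Specc1l (0.78) and Taf6 (0.75), with lower coefficients than for the other 6 genes.

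A GENCODE annotation, which was not the authors' own reference, was read around the genes, since overlapping genes or copies could affect counts. AU040320 (chr4:126753544-126870070, plus strand, GRCm38) shares 67 exonic bases with Zmym4 on the other strand, and Cell Ranger, which the authors ran with its defaults, counts only reads in the sense direction. Fgfr1 (chr8:25513654-25575718, plus strand) has a gene on the other strand, Gm16159. Tm9sf2 (chr14:122107038-122159604, plus strand) overlaps Gm6254 and Gm17082 on its own strand, and the exonic bases they share were not measured. Rpsa (chr9:120127689-120132369, plus strand) has 9 named pseudogenes, and whether its reads are shared with them was not tested.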

How the data were processed

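The deposited matrices hold raw UMI counts per gene and cell, made by the authors with Cell Ranger 3.0.2 against a custom mm10 reference from 10x Genomics 3' v3 libraries. The deposited metadata give the authors' subtype, the UMI count of each neuron and the percent of mitochondrial UMIs. The 8 genes, the gene lists and the barcode limits were chosen with earlier results of these data known.

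UMIs of each group of at least 10 neurons in a library were summed and tested in edgeR 4.0.16 (quasi-likelihood, TMM, filterByExpr, R 4.3.3), with Benjamini-Hochberg adjustment over all genes tested. The viral feature was left out of totals and tests. Barcode-high and barcode-zero sums come from the same library, so the library was a block. Replicates are separate mice for the unsorted libraries and a pool of 3 mice for the sorted one. Genes were called at an adjusted p under 0.05 and a log2 change of 0.5 or more. Intervals are from the fitted SE and its t quantile. Of the fits, only those of edgeR for barcode-high against barcode-zero neurons in L6-Syt6 and L5-S100b were run on simulated data. How the other fits behave on such data was not tested. Alternatives were DESeq2 1.42.0, its size factors, no low-count filter, no library block, each library left out, 1 or more barcode UMIs, neurons of 15000 to 30000 UMIs, and no limit on the fold. The parts of L6-Syt6 were added after the data had been seen. The text names all 8 genes and, of each list, at most the 4 genes of lowest adjusted p among those called in a barcode-high against barcode-zero comparison. List genes past the adjusted p only, and list genes named across subtypes, were chosen after their values were seen.

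Cell classes came from scanpy 1.11.5 (500 to 8000 genes, 1000 to 60000 UMIs, under 20% mitochondrial UMIs, 2000 variable genes without the 8 genes, 30 principal components, 15 neighbours, Leiden resolution 1.0). Of 36 clusters 24 were named by markers and 12, with 1267 cells, were not. No doublet caller was run. For likeness of pattern the 3 genes of highest r are named for each gene, except that 1 of them is not reported here.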

Additional observations from a re-analysis of the deposited data

How the results depend on the processing

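For the 8 called differences of single genes, 70 values under the alternatives kept their direction and their call, and 2 lost the call, the AU040320 values of L5-Htr2c given above. For differences that were not called, 569 values stayed uncalled and 1, Fgfr1 in part 1 of L6-Syt6, was called. The number of the 8 genes called in L6-Syt6 (0) was 1 in part 1 and 1 with no limit on the fold, and in L5-S100b against the other subtypes (1) it was 4 with no limit on the fold. The count of genes whose difference varied between subtypes (0) ranged from 0 to 1 when a library was left out, and was 1, Rpsa, without the sorted library. With no library block, that is without pairing the groups of a library, 0 of the 8 genes were called in each of the 6 subtypes, and the Fgfr1 change in L6-Syt6 was -0.41 with an adjusted p of 0.197 (edgeR). Barcode shares moved with depth and limit. After thinning they were 41.8% (L2/3-Calb1), 74.6% (L5-Bcl6), 71.5% (L6-Npy) and 41.8% (L6-Syt6). At 5 or more UMIs they were 25.9% (L2/3-Calb1), 66.0% (L2/3-Rorb), 62.7% (L5-Bcl6), 2.59% (L5-Htr2c), 69.1% (L5-S100b), 50.0% (L6-Npy) and 27.6% (L6-Syt6). Some intervals were wide: that for Fgfr1 ran from -0.86 to 0.76 on the log2 scale in L5-Bcl6 and from -0.34 to 0.97 in L5-S100b. The part of depth in this was not tested. Transcripts were read after infection, and protein at the axon was not measured.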
